A study of Mus musculus with 4 samples.

Results

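Type 2 conventional dendritic cells (cDC2) were picked out of single-cell RNA profiles of the stromal vascular fraction of mouse inguinal white adipose tissue (iWAT), the cells that remain when a subcutaneous fat pad is digested and its adipocytes float away. Their members were 119 barcodes of the 7416 retained in the lineage-marker-positive (Lin+) libraries and of 14931 retained in all: 43 from iAdFASNKO mice and 76 from control mice. The lineage-negative (Lin-) libraries gave 2 more iAdFASNKO and 5 more control cells. Members were thus selected on measured values, the UMI counts of the genes below, and every gene of these cells counts as used when they are set against other cells. A retained barcode had at least 300 genes, at least 500 unique molecular identifiers (UMIs, 1 for each captured transcript) and at most 10% mitochondrial UMIs. A cDC2 barcode then needed at least 10 UMIs of Cd74 and at least 2 of the 7 genes Cd209a, Flt3, Zbtb46, Itgax, Kmo, Tnip3 and Clec10a. It also needed fewer than 3 UMIs of the macrophage genes C1qa, C1qb and C1qc together and no UMI of Xcr1, Clec9a, Ccr7, Cd79a or Cd3e.

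Tissue of 8 iAdFASNKO mice was pooled, as was that of 7 control mice, which are C57BL/6 in the design text. The name iAdFASNKO is not spelled out in the labels and is known as an inducible, adipocyte-restricted deletion of Fasn (fatty acid synthase); adipocytes are not among the profiled cells. Magnetic beads split each pool into Lin+ and Lin- cells, and each of the 4 parts became 1 droplet library that reads the 3' ends of transcripts. With 1 pooled library for each genotype and fraction there is no replicate check, no test was run, and intervals (95%) cover counting error only. The genotype of a matrix was read from its name, so all directions rest on that name.

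Conventional dendritic cells carry antigen from tissues to lymph nodes and prime T cells. Type 1 cells cross-present to CD8+ T cells, whereas cDC2 present on MHC class II to CD4+ T cells and, in mice, are marked by Cd209a (a DC-SIGN homologue), Clec10a, Sirpa and the transcription factors Irf4 and Klf4. In adipose tissue they lie beside macrophages, with which they share many genes.

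The gated cells carried the cDC2 markers, with Cd209a in a smaller share of the iAdFASNKO cells. Because these genes formed the gate, their values only describe it. Cd209a was detected in 23 of 43 iAdFASNKO cells (53.5%) and in 61 of 76 control cells (80.3%), at 477 CPM in iAdFASNKO and 900 CPM in control cells (UMIs of the gene per 1000000 UMIs summed over the gated cells). The cytokine receptor gene Flt3 was detected in 19 iAdFASNKO and 43 control cells, and Zbtb46, a transcription factor of conventional dendritic cells, in 6 iAdFASNKO and 12 control cells. Clec10a, a C-type lectin gene, was detected in 29 iAdFASNKO and 57 control cells, and the integrin gene Itgax in 18 iAdFASNKO and 18 control cells. Cells with a Cd209a UMI were rare in stromal progenitors, at 0.108% of iAdFASNKO and 0.488% of control cells (median 8228 UMIs in iAdFASNKO and 9769 UMIs in control cells), and in B cells, at 0.994% of iAdFASNKO and 1.24% of control cells (median 2553 UMIs in iAdFASNKO and 2379 UMIs in control cells). Macrophages carried the gene more often, with a Cd209a UMI in 38.3% of iAdFASNKO and 28.9% of control cells (median 4677 UMIs in iAdFASNKO and 5188 UMIs in control cells). Median depth of the gated cells was 6546 UMIs in iAdFASNKO and 6437 in control libraries. Thinned to 2000 UMIs a cell, Cd209a was detected in 43.9% (28.5 to 60.3) of 41 iAdFASNKO and 72.5% (60.4 to 82.5) of 69 control cells, which leaves out 2 shallower iAdFASNKO and 7 shallower control cells.

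At the edge of the gate, 17 iAdFASNKO and 22 control cells had exactly 2 of the 7 marker genes, and 13 iAdFASNKO and 21 control barcodes stayed just outside with 1. Cd74 stood at 10 to 14 UMIs in 4 iAdFASNKO and 3 control cells, and 5 iAdFASNKO and 2 control barcodes just outside had 5 to 9. Some barcodes passed the cell filter and the Cd74, marker and C1q criteria but held a UMI of an excluded gene. Cd79a, a B cell gene, was present in 14 iAdFASNKO and 3 control barcodes of these. Ccr7 was present in 12 iAdFASNKO and 3 control barcodes, and Cd3e in 5 iAdFASNKO and 11 control barcodes. A barcode with UMIs of several excluded genes counts under each. No gated barcode occurred in another library, and no gated cell was called a doublet by Scrublet.

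Some gated cells held transcripts of other cell types, more of them in the iAdFASNKO library. Siglech, a plasmacytoid dendritic cell gene, was present in 6 iAdFASNKO and 3 control cells. Neutrophil genes (S100a8, S100a9 and Retnlg, at least 10 UMIs) were present in 4 iAdFASNKO and 2 control cells, and 2 iAdFASNKO cells and no control cell had at least 50 UMIs of stromal genes. A single control cell was rich in haemoglobin and 2 control cells in T cell genes. These limits were set after the data were seen. Leaving the 12 iAdFASNKO and 7 control cells out gave 31 iAdFASNKO and 69 control cells, called cells without other types here, and values in them stand beside those of all gated cells.

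**Figure D1:**
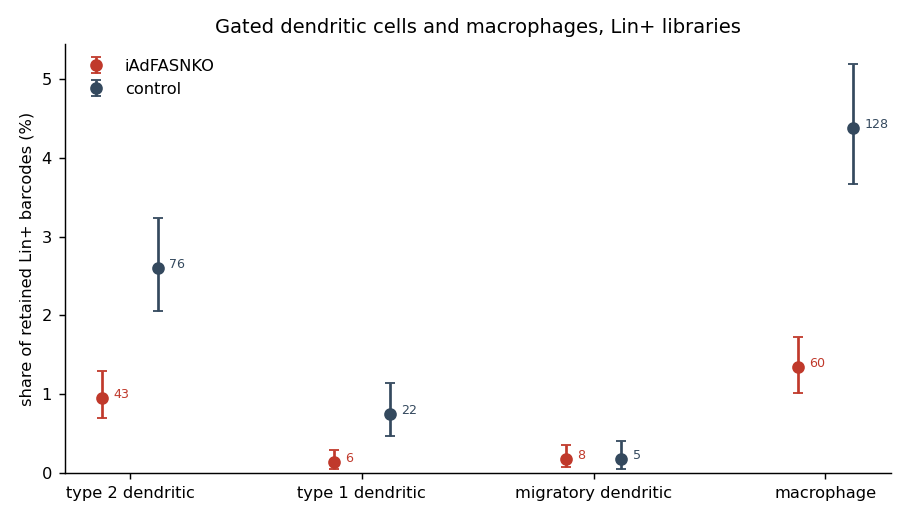
Share of retained Lin+ barcodes in each gated class (y axis, percent), with exact binomial intervals as bars and the number of cells beside each point; iAdFASNKO in red and control in blue. Type 2 dendritic cells stood at 0.957% in iAdFASNKO and 2.60% in control, and macrophages at 1.34% in iAdFASNKO and 4.38% in control.

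The share of cDC2 was lower in iAdFASNKO than in control tissue. It was 0.957% (0.693 to 1.29) of retained Lin+ barcodes in iAdFASNKO and 2.60% (2.05 to 3.24) in control, a ratio of 0.368 (0.254 to 0.533). In the Lin- libraries the shares were 0.0453% in iAdFASNKO and 0.161% in control, a ratio of 0.281 whose interval of 0.0546 to 1.45 includes 1. The Lin+ share was 21.1 times the Lin- share in iAdFASNKO and 16.1 times in control tissue.

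The other myeloid classes stood in part like cDC2. Type 1 dendritic cells numbered 6 in the iAdFASNKO and 22 in the control library, a share ratio of 0.177 (0.0720 to 0.437). Macrophages numbered 60 in the iAdFASNKO and 128 in the control library, a ratio of 0.305 (0.225 to 0.413). Migratory dendritic cells, which express Ccr7, numbered 8 in iAdFASNKO and 5 in control, a ratio of 1.04 (0.341 to 3.18). The Lin+ libraries also differed in their lymphocytes. B cells made up 33.6% of the iAdFASNKO and 13.8% of the control barcodes, and T cells 14.5% of the iAdFASNKO and 6.95% of the control barcodes.

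The ratio depended on what cDC2 were counted against. Among barcodes with a UMI of Ptprc, the pan-leukocyte gene, cDC2 were 1.67% (42 of 2520) in iAdFASNKO and 7.37% (74 of 1004) in control, a ratio of 0.226 (0.156 to 0.328). Leaving out barcodes with B or T cell genes gave 10.9% (39 of 358) in iAdFASNKO and 16.9% (68 of 402) in control, a ratio of 0.644 (0.446 to 0.930). It stayed under 1 in every denominator tried. The contribution of lymphocyte numbers to the ratio was not tested.

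The genes compared were the 5019 with at least 20 UMIs over both Lin+ libraries. A gene was counted as higher or lower when its CPM fold, iAdFASNKO over control, was at least 1.5 or at most 1/1.5 and its counting interval left out 1. By this rule 298 genes were higher, 5.94% of those measured, and 198 were lower, 3.95%. The median log2 fold of all measured genes was 0.03. In cells without other types 4246 genes were measured, of which 233 (5.49%) were higher and 201 (4.73%) lower; 165 were higher and 123 lower in both sets of cells.

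Interferon response genes, which cells switch on when interferons bind their receptors, were lower in iAdFASNKO cDC2. Of the 27 measured members of the list, 15 were lower and 0 higher, against the 3.95% of all genes called lower, and the median log2 fold was -1.17. The fold was under 1 for 25 of the 27. Without cells of other types 17 of 23 measured members were lower, against 4.73% of all genes in those cells, and the median was -1.27. Lower calls numbered 14 after the cell with most UMIs of each gene was left out in each library.

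The most abundant member was Ifitm3, which encodes a membrane protein that blocks virus entry (chr7:141009586-141010770, mm10). It had 1040 CPM in iAdFASNKO and 2424 CPM in control cells, a fold of 0.429 (0.379 to 0.485), and was detected in 33 of 43 iAdFASNKO and 69 of 76 control cells. The median cell had 538 CPM in the iAdFASNKO library and 1874 CPM in the control library, and the ranges overlapped. Ifi27l2a, another interferon-induced gene, had 449 CPM in iAdFASNKO and 1016 CPM in control cells, a fold of 0.441. Irf7, the transcription factor that amplifies type I interferon production, had 43.6 CPM in iAdFASNKO and 124 CPM in control cells, a fold of 0.350 (0.181 to 0.634), and was detected in 7 iAdFASNKO and 31 control cells. Irf9, a subunit of the complex that activates these genes, was lower at 0.400.

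Antiviral effectors followed the same direction. Isg15, a ubiquitin-like modifier, had 16 UMIs in 5 iAdFASNKO cells and 63 UMIs in 23 control cells, a fold of 0.388 (0.209 to 0.679). In cells without other types a single UMI was left in iAdFASNKO and 51 in control. Ifit3, which binds viral RNA together with Ifit1, had 3 UMIs in iAdFASNKO and 38 UMIs in control cells, a fold of 0.121 (0.0238 to 0.380), and Ifit1 had 4 UMIs in iAdFASNKO and 28 in control cells. Oas3, a sensor that makes the activator of RNase L, had a fold of 0.269, Oasl2 0.369, Usp18, which trims Isg15 from proteins, 0.278, and Slfn5 0.448. Ifi206, of the Ifi200 family of DNA sensors and outside the list, had 1 UMI in iAdFASNKO and 31 in control cells. The 3' end of Ifi209, a list member of that family, shares 46.5% of its 31-base words (last 300 bases of each transcript) with other genes, so counts within that family are uncertain. Cxcl10, a chemokine that draws in T cells, was lower at 0.254, but its 18 control UMIs lay in 1 cell.

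Not every member was lower. Bst2, which tethers budding viruses, had 427 CPM in iAdFASNKO and 381 CPM in control cells, a fold of 1.12 (0.891 to 1.40).

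**Figure D2:**
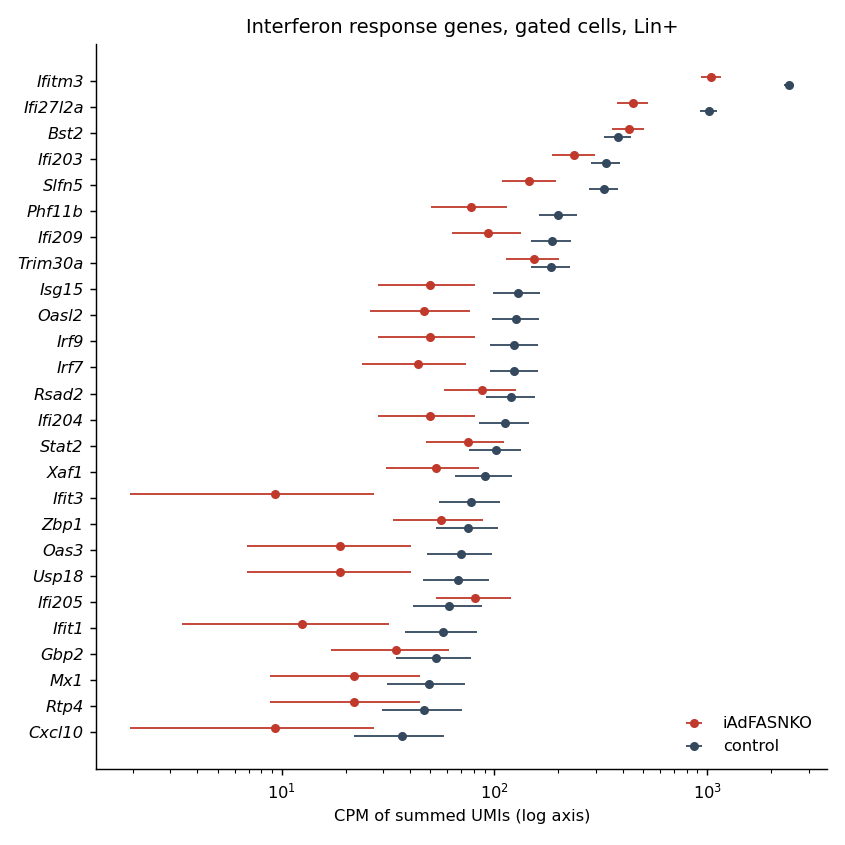
CPM of 26 of the 27 measured interferon response genes in gated Lin+ cells (x axis, log scale) with exact Poisson intervals; iAdFASNKO in red above control in blue. Only Bst2 and Ifi205 stand higher in iAdFASNKO than in control cells.

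The promoters below are those of the 4 lower list genes with the lowest folds among genes that hold a searched motif and stay lower without their top cell. They are shown because the motif is the core of the sequence bound by interferon regulatory factors. Each runs from 250 bases before to 50 bases after the start of the gene (RefSeq, GRCm38.p6), 5' to 3' on the gene's strand. Capitals mark GAAANNGAAA or its reverse complement TTTCNNTTTC, and overlapping matches are joined.
Ifit3, chr19:34583279-34583578, + strand: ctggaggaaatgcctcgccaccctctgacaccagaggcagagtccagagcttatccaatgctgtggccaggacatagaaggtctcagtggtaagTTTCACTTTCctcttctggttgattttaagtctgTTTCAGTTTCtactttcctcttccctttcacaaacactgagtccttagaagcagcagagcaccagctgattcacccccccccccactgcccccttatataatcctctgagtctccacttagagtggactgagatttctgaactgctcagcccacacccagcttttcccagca
Ifit1, chr19:34640639-34640938, + strand: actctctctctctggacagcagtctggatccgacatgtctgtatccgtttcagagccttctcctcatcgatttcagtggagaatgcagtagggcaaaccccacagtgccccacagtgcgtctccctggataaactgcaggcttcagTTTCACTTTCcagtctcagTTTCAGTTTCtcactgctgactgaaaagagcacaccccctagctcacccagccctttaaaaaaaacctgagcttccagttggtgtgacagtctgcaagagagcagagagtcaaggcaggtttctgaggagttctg
Oas3, chr5:120777610-120777909, - strand: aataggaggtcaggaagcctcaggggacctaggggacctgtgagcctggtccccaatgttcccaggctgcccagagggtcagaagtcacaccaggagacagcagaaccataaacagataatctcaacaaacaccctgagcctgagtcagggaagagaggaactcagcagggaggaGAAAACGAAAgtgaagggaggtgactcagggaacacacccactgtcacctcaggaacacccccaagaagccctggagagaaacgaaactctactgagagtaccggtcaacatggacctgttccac
Isg15, chr4:156200769-156201068, - strand: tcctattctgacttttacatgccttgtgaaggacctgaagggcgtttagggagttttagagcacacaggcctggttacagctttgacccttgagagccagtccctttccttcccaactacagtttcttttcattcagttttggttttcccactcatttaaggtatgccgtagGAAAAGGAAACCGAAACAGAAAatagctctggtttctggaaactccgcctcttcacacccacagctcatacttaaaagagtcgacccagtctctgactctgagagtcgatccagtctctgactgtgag
The Ifit3 and Ifit1 windows held 2 matches each, Oas3 held 1 and Isg15 held 3 that overlap. Of the 28 list genes with a window 18 held a match, as did 8 of the 12 lower ones. Among all 27025 genes with a window the share was 3.99%. A match is a description of the letters only, and windows of Irf7 and Oasl2 held none.

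In macrophages and type 1 dendritic cells the interferon list was also lower in iAdFASNKO than in control cells, and in migratory dendritic cells it was not. Summed over the list, cDC2 had 3545 CPM in iAdFASNKO and 6879 CPM in control. Macrophages had 4319 CPM in iAdFASNKO and 8286 CPM in control cells, with 24 of 34 measured members lower and 1 higher, and type 1 dendritic cells 1995 CPM in iAdFASNKO and 8335 CPM in control cells, with 15 of 16 lower over 6 iAdFASNKO and 22 control cells. Migratory dendritic cells, 8 in iAdFASNKO and 5 in control, had 937 CPM in iAdFASNKO and 641 CPM in control. B cells stood at 2633 CPM in iAdFASNKO and 3225 CPM in control cells with 9 of 33 lower and 0 higher. T cells stood at 2603 CPM in iAdFASNKO and 2953 CPM in control cells with 3 of 33 lower and 8 higher. Progenitors stood at 4990 CPM in iAdFASNKO and 5604 CPM in control cells with 3 of 34 lower and 2 higher. The shares of all measured genes called lower were 8.32% in macrophages, 7.24% in type 1 dendritic cells, 7.01% in B cells, 14.9% in T cells and 3.89% in progenitors. The shares called higher were 2.88% in macrophages, 5.12% in type 1 dendritic cells, 5.17% in B cells, 4.13% in T cells and 8.95% in progenitors. The B cell, T cell and progenitor classes were added after the data were seen.

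**Figure D3:**
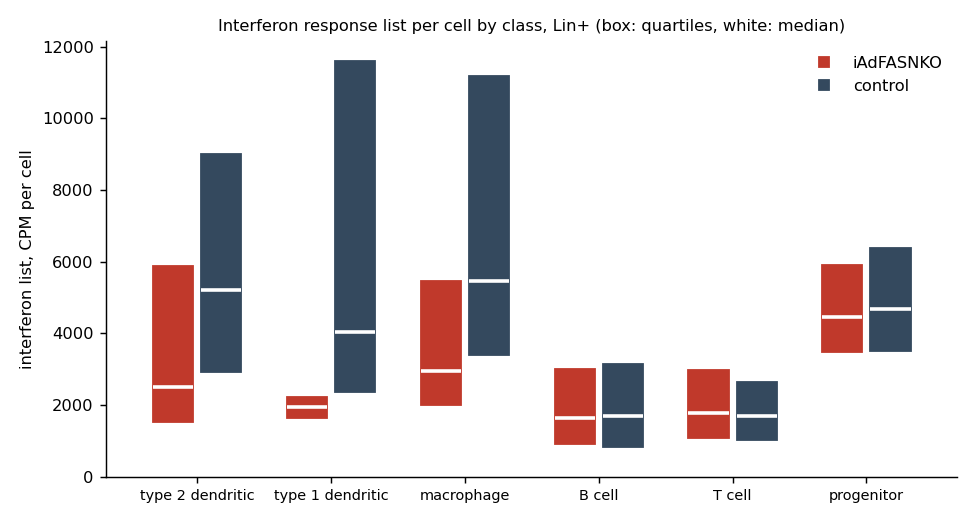
Summed CPM of the interferon response list in each cell (y axis) by class in the Lin+ libraries; boxes span the quartiles and the white line is the median, iAdFASNKO in red left of control in blue. The cDC2 median was 2516 CPM in iAdFASNKO and 5221 CPM in control cells, and the B cell median was 1644 CPM in iAdFASNKO and 1685 CPM in control cells.

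Outside the interferon list, lower genes included Ms4a4c, Itgb7 and Traf1. Ms4a4c, of the membrane-spanning 4A family, had 146 CPM in iAdFASNKO and 384 CPM in control cells, a fold of 0.382 (0.271 to 0.528). Itgb7, the integrin subunit that pairs with Itgae and Itga4, had 140 CPM in iAdFASNKO and 345 CPM in control cells, a fold of 0.407 (0.286 to 0.568), and was detected in 23 iAdFASNKO and 54 control cells. Traf1, an adaptor of tumour necrosis factor receptors, had 140 CPM in iAdFASNKO and 337 CPM in control cells, a fold of 0.416 (0.293 to 0.582). In type 1 dendritic cells its fold was 3.64. Among cDC2 with a Cd209a UMI, Traf1 stood at 199 CPM (136 to 281) in iAdFASNKO and 272 CPM (224 to 327) in control. These intervals overlap. Among cDC2 without one it stood at 81.2 CPM (43.3 to 139) in iAdFASNKO and 700 CPM (523 to 918) in control. Spn, the sialomucin CD43, had a fold of 0.260, and Selplg, the ligand of selectins, 0.639. Each of these 5 genes was also lower without cells of other types.

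Ly6c2, a marker of classical monocytes, had a fold of 0.352, with 18 UMIs in 7 iAdFASNKO and 78 UMIs in 20 control cells. Its 3' end shares 50.1% of its words with other genes, chiefly Ly6c1. Ly6c2 was lower in other classes too. Macrophages had 12.4 CPM of it in iAdFASNKO and 280 CPM in control, and B cells 18.7 CPM in iAdFASNKO and 418 CPM in control. T cells had 335 CPM in iAdFASNKO and 404 CPM in control. Il4ra, a chain of the interleukin 4 and 13 receptors, had 7 UMIs in iAdFASNKO and 34 UMIs in control cells, a fold of 0.314 (0.118 to 0.720), and Il10ra, the interleukin 10 receptor, 0.485. Pycard, the inflammasome adaptor, had a fold of 0.436 and the lectin gene Clec4a1 0.454. By the order of their intervals the first lower genes also held Tmem50b, Cd93, Pik3ip1, Mapkapk3, St6galnac2 and Accs. Tmem50b had 1 UMI in iAdFASNKO and 27 in control cells, and Cd93 had 1 in iAdFASNKO and 22 in control cells. Pik3ip1 had 3 UMIs in iAdFASNKO and 29 in control cells, and Mapkapk3 2 in iAdFASNKO and 24 in control cells. St6galnac2 had 7 UMIs in iAdFASNKO and 41 in control cells, and Accs 3 in iAdFASNKO and 25 in control cells.

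Over all gated cells, antigen presentation genes stood mostly near or under the control level. Of 9 measured MHC class II genes 1 was higher and 0 lower, against 5.94% of all genes higher and 3.95% lower. Their median log2 fold was -0.21. The chains of the I-A and I-E molecules had folds of 0.862 for H2-Aa, 0.854 for H2-Ab1 and 0.782 for H2-Eb1, with intervals under 1 but inside the size limit. Among cells with a Cd209a UMI, H2-Aa stood at 11012 CPM (10505 to 11537) in iAdFASNKO and 9603 CPM (9308 to 9906) in control. Among cells without one it stood at 5174 CPM (4827 to 5538) in iAdFASNKO and 8279 CPM (7638 to 8960) in control. The direction of H2-Aa thus differed between these sets of cells. H2-DMb2, a chain of the peptide-loading molecule, was higher at 2.06 (1.36 to 3.13); it was 2.84 in progenitors, where its expression is not usual, and 1.46 in B cells. Ciita, the master regulator of these genes, had 218 CPM in iAdFASNKO and 314 CPM in control cells, a fold of 0.694 (0.516 to 0.926). In the MHC class I pathway 1 of 18 was lower, near the 3.95% of all genes called lower: the nonclassical gene H2-T23, at 0.578.

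Lectin genes split. Mgl2 (CD301b), the marker of a cDC2 subset, was higher with 679 CPM in iAdFASNKO and 365 CPM in control cells, a fold of 1.86 (1.52 to 2.28). It was detected in 23 of 43 iAdFASNKO and 25 of 76 control cells, and in 1.26% of iAdFASNKO and 0.995% of control B cells. Macrophages had it more often than cDC2, in 81.7% of iAdFASNKO and 53.9% of control cells, at 1298 CPM in iAdFASNKO and 462 CPM in control cells. Without cells of other types the fold was 2.44. Thinned to 2000 UMIs it was detected in 43.9% (28.5 to 60.3) of iAdFASNKO and 29.0% (18.7 to 41.2) of control cells, and these intervals overlap. The neighbouring Clec10a had 352 CPM in iAdFASNKO and 484 CPM in control cells, a fold of 0.728 (0.577 to 0.915), short of the size rule. The 3' ends of Mgl2 and Clec10a share words, 19.2% of those of Mgl2 and 24.8% of those of Clec10a with other genes in all, so some reads cannot be told apart. Cd209d had a fold of 1.85 and lay in 16 iAdFASNKO and 22 control cells. Mrc1, the mannose receptor, was higher at 1.76 (1.22 to 2.55).

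Cd209a was used by the gate, so its fold of 0.530 in all gated cells and 0.667 without cells of other types only describes the cells chosen. Among cells with a Cd209a UMI, Mgl2 stood at 845 CPM in 23 iAdFASNKO and 406 CPM in 61 control cells. Ifitm3 stood at 1130 CPM in these iAdFASNKO and 2575 CPM in these control cells. In cells without a Cd209a UMI, Ifitm3 stood at 950 CPM in 20 iAdFASNKO and 1575 CPM in 15 control cells.

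**Figure D4:**
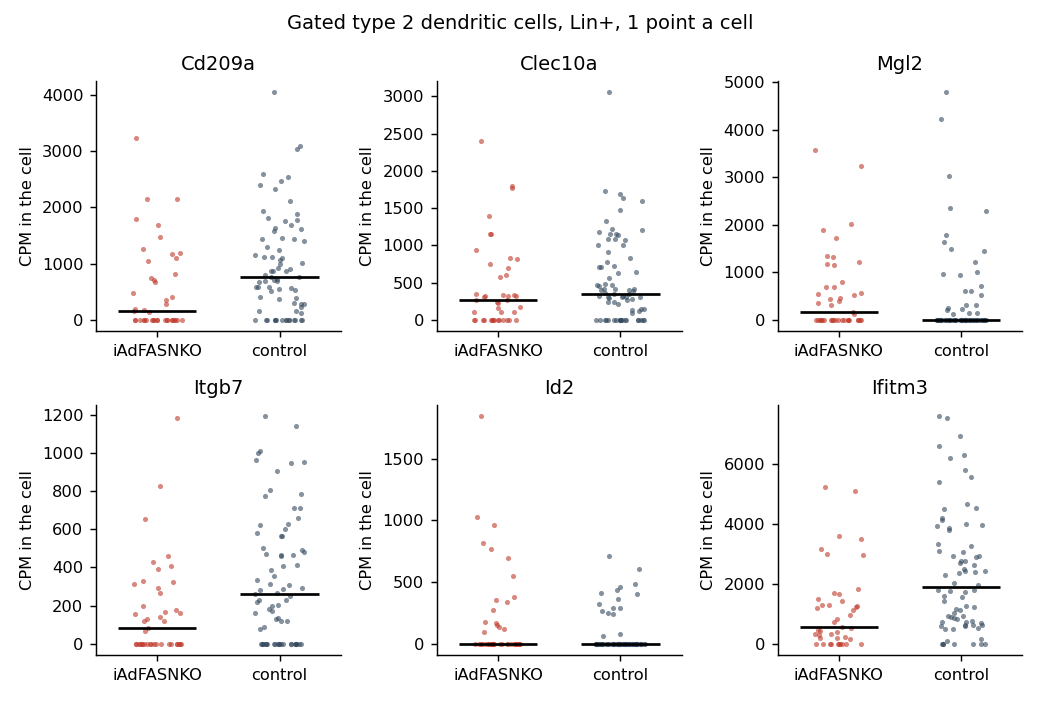
CPM of 6 genes in each gated Lin+ cell (y axis), 43 iAdFASNKO cells in red left of 76 control cells in blue, with the median as a black line. Cd209a, Itgb7 and Ifitm3 have lower medians in iAdFASNKO than in control cells, Mgl2 has a higher one, and the cells of both libraries overlap for each gene.

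Regulators and receptors of dendritic cells were measured next. Of 34 measured transcription factors 7 were higher and 0 lower, against 5.94% of all genes higher and 3.95% lower, with a median log2 fold of 0.18. In the 18 iAdFASNKO and 55 control cells without other types that had a Cd209a UMI, 1 of 27 was higher and 1 lower. Of the 3379 genes measured in those cells 142 were higher and 153 lower. Id2, an inhibitor of helix-loop-helix factors, had 237 CPM in iAdFASNKO and 71.4 CPM in control cells, a fold of 3.32 (2.19 to 5.10), and lay in 17 iAdFASNKO and 16 control cells. In cells without other types it was 4.04, and 62 of its 76 iAdFASNKO UMIs lay in cells with no Cd209a UMI. Irf4 had a fold of 0.825 (0.454 to 1.46) and Klf4 1.49 (1.18 to 1.88). Irf8 was higher at 2.68 in all gated cells and had 5 UMIs in iAdFASNKO and 12 in control cells without other types. Tcf4, which plasmacytoid cells use most, was higher at 1.63 and at 1.58 without other types.

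Of 23 measured cytokine and growth factor receptor genes 6 were higher and 3 lower, against 5.94% of all genes higher and 3.95% lower. In cells without other types that had a Cd209a UMI, 2 of 19 were higher and 1 lower. Of the 3379 genes measured in those cells 142 were higher and 153 lower. Il7r, the interleukin 7 receptor, had a fold of 2.89 (1.62 to 5.34) with 36 UMIs in 13 iAdFASNKO and 19 UMIs in 10 control cells. It was 7.87 in progenitors and 11.1 in B cells, and the share of free RNA in this gene was not tested. Il1rl1, the interleukin 33 receptor, was higher at 2.54 (1.29 to 5.19) and Csf1r, the receptor for the macrophage growth factor, at 1.96. Among cells with a Cd209a UMI, Csf1r stood at 49.7 CPM (21.5 to 97.9) in iAdFASNKO and 40.9 CPM (23.8 to 65.4) in control. Among cells without one it stood at 175 CPM (116 to 253) in iAdFASNKO and 148 CPM (73.9 to 265) in control. In both sets of cells the intervals of Csf1r overlap. Cd24a, a cell-surface sialoglycoprotein, was higher at 3.64 (2.41 to 5.60), Cd200r1, an inhibitory receptor, at 2.02 and Cd86, a costimulator of T cells, at 1.74. Among cells with a Cd209a UMI, Cd86 stood at 74.5 CPM (38.5 to 130) in iAdFASNKO and 52.9 CPM (33.2 to 80.1) in control. Among cells without one it stood at 125 CPM (76.3 to 193) in iAdFASNKO and 80.8 CPM (29.6 to 176) in control. The intervals of Cd86 overlap in both sets. The macrophage markers Cd163 and Mrc1 with Csf1r made 3 of 4 measured members of that list higher, and the C1q genes had been held under 3 UMIs by the gate.

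Genes that respond to interleukin 4 and 13 were mostly higher: 6 of 8 measured members were higher and 2 lower, against 5.94% and 3.95% of all genes, with a median log2 fold of 1.09. In cells without other types that had a Cd209a UMI, 3 of 6 were higher and 1 lower. Of the 3379 genes measured in those cells 142 were higher and 153 lower. Retnla, a secreted protein of alternatively activated myeloid cells, had 2302 CPM in iAdFASNKO and 590 CPM in control cells, a fold of 3.90 (3.40 to 4.49), from 12 iAdFASNKO and 11 control cells. Of its 289 control UMIs 222 lay in 1 cell. Among cells without a Cd209a UMI, Retnla stood at 3218 CPM (2946 to 3508) in iAdFASNKO and 3446 CPM (3037 to 3895) in control. These intervals overlap. Cells with a Cd209a UMI had 1391 CPM of Retnla in iAdFASNKO and 79.3 CPM in control. Egr2 had 24 UMIs in iAdFASNKO and 4 UMIs in control cells, a fold of 9.16 (3.15 to 36.3). Arg1 had 36 UMIs in 1 iAdFASNKO cell and none in control. Of the 2 lower members, Ccl17 had 20 of its 21 control UMIs in 1 cell and Il4ra is given above.

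Immediate early genes, which are switched on within minutes of a stimulus or of tissue digestion, had 8 of 29 members higher and 0 lower, against 5.94% of all genes higher, with a median log2 fold of 0.28. Fos had 1184 CPM in iAdFASNKO and 581 CPM in control cells, a fold of 2.04 (1.74 to 2.38). Heat shock genes had 1 of 14 higher and 0 lower. Mitochondrial UMIs had a median of 4.50% in iAdFASNKO and 3.61% in control cells. In type 1 dendritic cells 8 of 16 immediate early genes were higher and 0 lower, against 5.12% of all genes higher. Macrophages had 14 of 30 higher and 3 lower, against 2.88% higher. The other direction was seen in B cells (11 of 30 lower), T cells (15 of 30) and progenitors (15 of 30), with 0 higher in each. The shares of all genes called lower there were 7.01%, 14.9% and 3.89%. The part of cell handling in these values was not tested.

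In metabolism, 4 of 12 glycolysis genes were higher and 0 lower, against 5.94% of all genes higher, Ldha (lactate dehydrogenase) at 1.60 (1.18 to 2.17) and Pgk1 at 1.70. Only 1 of the 4 stayed past the rule without its top cell. Of 31 oxidative phosphorylation genes 2 were higher and 0 lower, near the 5.94% of all genes called higher. Lpl, which releases fatty acids from lipoproteins, had 614 CPM in iAdFASNKO and 151 CPM in control cells, a fold of 4.06. Of its UMIs, 161 of 197 in iAdFASNKO and 65 of 74 in control lay in 9 iAdFASNKO and 3 control cells without a Cd209a UMI. Over all cells without a Cd209a UMI its level was 1006 CPM (857 to 1174) in iAdFASNKO and 875 CPM (675 to 1115) in control, and these intervals overlap. Cells with a Cd209a UMI had 224 CPM in iAdFASNKO and 21.6 CPM in control. Apoe was higher at 4.58. Fasn, the gene named in the mouse line, had 9 UMIs in iAdFASNKO and 10 in control cDC2, too few for the comparison.

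The other genes with the highest intervals moved with the cells of other types. S100a8, S100a9, Dcn and the haemoglobin genes were among the genes that picked out those cells. Their values without other types therefore only describe that choice. Dcn, a stromal proteoglycan, had 339 UMIs in 17 iAdFASNKO cells and 47 UMIs in 29 control cells, and its fold was 0.629 without other types. S100a8 and S100a9 had folds of 8.14 and 7.36, with 1 UMI of S100a8 left in iAdFASNKO and 0 in control cells without other types. Ly6d had 117 UMIs in iAdFASNKO and 5 UMIs in control cells and Cox6a2 23 in iAdFASNKO and 0 in control cells, and neither kept a UMI. Inmt, Mmp3, Plpp3, Csf1, Serping1, Tnxb, Ogn and Ecm1 had under 20 UMIs there. Cd81, a tetraspanin, and Phlda1 stayed higher, at 8.08 and 4.96. The 4 haemoglobin genes were lower, with folds from 0.153 for Hba-a2 to 0.223 for Hbb-bs, and stood between 0.906 and 1.09 without other types.

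**Figure D5:**
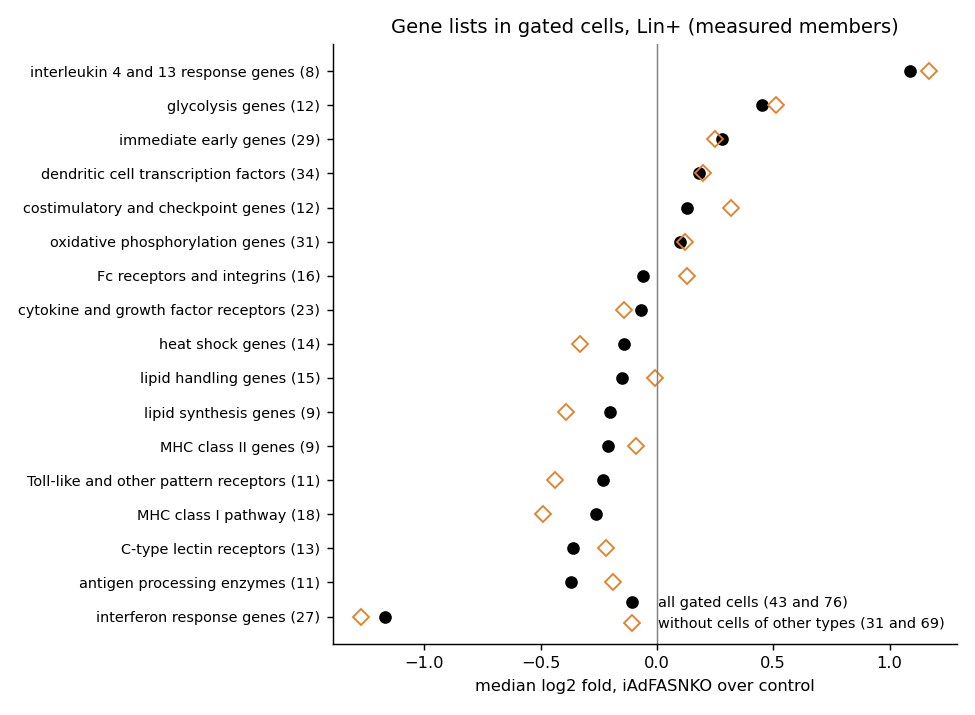
Median log2 fold, iAdFASNKO over control, of the measured members of 17 gene lists (number in brackets), in all gated Lin+ cells (black) and without cells of other types (orange diamonds). The interferon list is lowest at -1.17 and -1.27, and the interleukin 4 and 13 list highest at 1.09 and 1.17.

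Outside the gate genes, a small set had higher CPM in cDC2 than in the other dendritic cells and macrophages. It is described without a test because the gate chose the cells. Klrd1, which encodes the natural killer receptor CD94, had 162 CPM (121 to 212) in iAdFASNKO and 310 CPM (263 to 363) in control cDC2. Type 1 dendritic cells had 66.0 CPM (18.0 to 169) of it in iAdFASNKO and 129 CPM (79.8 to 197) in control. Migratory cells had 76.5 CPM (20.8 to 196) in iAdFASNKO and 91.5 CPM (11.1 to 331) in control. These rest on 4 iAdFASNKO and 2 control UMIs. The cDC2 interval overlapped that of migratory cells in both libraries and that of type 1 cells in iAdFASNKO. Cd300a, an inhibitory receptor, had 196 CPM in iAdFASNKO and 257 CPM in control cDC2, above the 96.0 CPM of iAdFASNKO and 102 CPM of control macrophages. Type 1 cells had 66.0 CPM (18.0 to 169) of Cd300a in iAdFASNKO and 129 CPM (79.8 to 197) in control. In iAdFASNKO this interval overlapped that of cDC2 (151 to 251). Cd7, a lymphoid and dendritic surface protein, had 265 CPM in iAdFASNKO and 308 CPM in control cDC2, above the 49.5 CPM of iAdFASNKO and 160 CPM of control type 1 cells. Ms4a4c had 146 CPM (108 to 195) in iAdFASNKO and 384 CPM (331 to 442) in control cDC2. In macrophages it stood at 34.1 CPM in iAdFASNKO and 191 CPM in control. Type 1 cells had 33.0 CPM (3.99 to 119) in iAdFASNKO and 184 CPM (124 to 263) in control. The iAdFASNKO intervals of cDC2 and type 1 cells overlapped for this gene. Of the 17 cDC2 markers outside the gate 15 were measured. Of these 4 were higher and 2 lower, against 5.94% of all genes higher and 3.95% lower. The higher ones were Mgl2, H2-DMb2, Cd86 and Id2, and the lower ones Tmem176a and Traf1. Ccr2, the receptor that brings cells out of the bone marrow, had 629 CPM in iAdFASNKO and 690 CPM in control cells and Sirpa 199 CPM in iAdFASNKO and 214 CPM in control cells.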

How the data were processed

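The authors deposited UMI counts as whole numbers, raw by their values and per the file headers. The submitters' processing notes name Cell Ranger 3.1.0, Seurat 3.0 and mm10, and the matrix header software version 3.0.2. No source used here gives a barcode filter applied before deposit. Fraction was read from the barcode tag in the labels and genotype from the matrix name.

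The members, gene lists and named genes were chosen with earlier results of these data known. UMIs were summed over the gated cells of each library. CPM carry exact Poisson intervals, folds exact conditional binomial intervals, shares Clopper-Pearson intervals and share ratios Katz intervals, at 95%. Total UMIs per library ran from 21622291 to 33016494; the gated cells held 321051 (iAdFASNKO) and 490171 (control). In log2 folds a count of 0 was set to a floor of 3 counts, and genes were ordered by their ratio to the other dendritic cell and macrophage classes with counts under 3 in those classes set to 3. Named genes were the gate genes, the first 15 in each direction past the fold by the interval bound nearest to 1 that stayed past it without their top cell (without mitochondrial, sex-linked and unnamed genes), list members past the fold with well-known others, and genes highest against the other classes. Python 3.11.15, scipy 1.17.1 and scanpy 1.11.5 were used, and the fold code was tested on simulated counts. Coordinates are those of GENCODE M21. A few genes are not reported here. Alternatives are given in the closing section.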

Additional observations from a re-analysis of the deposited data

Results flagged for a closer look

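Among the named genes, 30 passed the fold in opposite directions in cDC2 and in macrophages of the Lin+ libraries, which is what singled them out. The difference between the classes was not tested, and values in brackets are folds, iAdFASNKO over control, in cDC2 and then in macrophages. Of these 24 were higher in cDC2 and lower in macrophages and 6 the other way round. A narrower list of 6 genes, which also stayed past the fold without their top cell and without cells of other types, was drawn up after a list of 19 without the second condition had been seen, so all 30 are given. Cd209a was used by the gate, so its value in cDC2 only describes the cells chosen.

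The 7 that stayed past the fold in cDC2 without cells of other types were Cebpb (2.19 and 0.663), Ldha (1.60 and 0.591), Egr2 (9.16 and 0.265), Lpl (4.06 and 0.615), Id2 (3.32 and 0.579), Il7r (2.89 and 0.119), Tnfrsf1b (1.96 and 0.299); of these Tnfrsf1b did not stay past it without its top cell. A further 11 are stromal or matrix genes or genes whose iAdFASNKO UMIs lay mostly in cells of other types: Gsn (1.90 and 0.512), Serping1 (8.14 and 0.300), Ecm1 (12.6 and 0.325), Csf1 (41.2 and 0.261), Hspb1 (2.49 and 0.152), Col1a2 (2.42 and 0.259), Inmt (21.8 and 0.161), Dcn (11 and 0.395), Mmp3 (15.8 and 0.276), Col1a1 (2.15 and 0.348), Tnxb (32.1 and 0.622). Another 6 higher genes were Il1r2 (2.82 and 0.469), Cxcl2 (2.98 and 0.649), Clec4d (2.25 and 0.337), Ccl3 (1.61 and 0.309), Ctsl (2.60 and 0.593), Retnlg (4.58 and 0.439). Retnlg was also among the genes that picked out the cells of other types. The list of neutrophil markers that holds it summed to 2507 CPM in all gated iAdFASNKO cells and to 28.0 CPM without other types. In control cells these sums were 361 CPM and 18.5 CPM. The 6 that were lower in cDC2 and higher in macrophages were Cxcl10 (0.254 and 2.34), Hbb-bt (0.187 and 1.98), Hbb-bs (0.223 and 3.11), Hba-a1 (0.184 and 2.49), Hba-a2 (0.153 and 2.49), Cd209a (0.530 and 1.79).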

How the results depend on the processing

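Of 22 alternative settings, those for the share of cDC2 gave ratios from 0.226 to 0.644, all under 1; the ends are the Ptprc denominators. Genes called higher numbered 170 with 3 of 7 markers, 153 with at least 50 UMIs, 529 with no minimum, 156 without the top cell, 14 in the Lin- libraries and 142 in cells without other types that also had a Cd209a UMI, against 298. Genes called lower numbered 106 with at least 50 UMIs and 33 in Lin-, against 198. The interferon median of -1.17 was -1.39 with at least 20 Cd74 UMIs, -1.48 with Cd74 at 2000 CPM or more, -2.25 with 3 of 7 markers, -1.39 without the top cell, -1.41 in cells without other types that also had a Cd209a UMI and 0.11 in Lin-, where the direction turned over 2 iAdFASNKO and 5 control cells. The cause of these shifts was not tested. The mean over cells has no counting interval and gave no counts of calls.

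Across 121 named genes past the fold and 28 other lists, 65 of 2203 values were counted as changing sign, 24 of them for 16 genes. A list whose main median lay close to 0 was not counted. Without cells of other types, for example, the list of cytokines went from 0.07 to -0.18. Classical monocyte markers went from 0.05 to -0.29 there, and Fc receptors and integrins from -0.06 to 0.13. The counted log2 values follow, against the main direction. With 3 of 7 markers needed they were -0.02 for the list of chemokine and migration receptors, 0.13 for the list of lipid handling genes, -1.03 for the list of stromal progenitor markers, -0.40 for the list of tryptophan and vitamin A enzymes, -1.16 for Col1a1, -0.01 for Col1a2, -1.43 for Fn1, -0.92 for Gsn, -0.16 for Tnfrsf1b. With C1q UMIs at 0 they were 0.17 for the list of C-type lectin receptors, 0.66 for the list of lipid handling genes. With at least 20 Cd74 UMIs they were -0.05 for the list of chemokine and migration receptors. In the Lin- libraries they were 0.38 for the list of Clec12a-type subset genes, 0.09 for the list of MHC class I pathway, -1.06 for the list of S100 and annexin genes, 0.51 for the list of antigen processing enzymes, -0.30 for the list of oxidative phosphorylation genes, -2.07 for Gsn, 0.11 for Ifitm3, 0.32 for Tmem176a. With at least 10 UMIs a gene they were 0.54 for the list of C-type lectin receptors, 0.15 for the list of lipid synthesis genes. With at least 50 they were -0.43 for the list of chemokine and migration receptors, 0.00 for the list of lipid handling genes. With the mean over cells they were -0.09 for the list of chemokine and migration receptors, 0.34 for the list of lipid synthesis genes. With no UMI minimum they were 0.54 for the list of C-type lectin receptors, -0.07 for the list of costimulatory and checkpoint genes, 0.20 for the list of lipid handling genes, 0.21 for the list of lipid synthesis genes. With the stricter cell filter they were 0.16 for the list of C-type lectin receptors, -0.24 for the list of chemokine and migration receptors, 0.86 for the list of lipid handling genes. Without cells of other types they were -0.12 for the list of chemokine and migration receptors, -0.73 for the list of proliferation genes, -0.49 for the list of stromal progenitor markers, -0.49 for Ccl3, -0.23 for Col1a1, -0.67 for Dcn, -0.76 for Gsn, 0.13 for Hbb-bs, -0.27 for Hspb1. In the 18 iAdFASNKO and 55 control cells of these with a Cd209a UMI they were 0.12 for the list of C-type lectin receptors, 0.00 for the list of Clec12a-type subset genes, 0.26 for the list of MHC class II genes, -0.21 for the list of chemokine and migration receptors, 0.13 for the list of gate genes, -0.44 for the list of proliferation genes, -0.03 for the list of stromal progenitor markers, 0.03 for the list of type 2 dendritic markers outside the gate, -0.07 for Ahr, -0.79 for Ccl3, -0.61 for Cebpb, -0.16 for Dcn, -0.61 for Gsn, 0.15 for Hbb-bs, 0.13 for Hbb-bt, -0.93 for Lipa, -0.06 for Pgk1. Without the top cell of each gene they were -0.22 for the list of chemokine and migration receptors, 0.32 for the list of lipid handling genes, -0.24 for the list of proliferation genes, -0.07 for the list of stromal progenitor markers, -0.44 for the list of tryptophan and vitamin A enzymes, -0.17 for Gsn.

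No paired analysis was possible because each genotype and fraction is 1 library and no replicate numbers are given. Leaving out a replicate was not possible for the same reason. With 43 iAdFASNKO and 76 control cells, genes under 20 UMIs were not compared, and values in classes of under 10 cells, type 1 and migratory dendritic cells among them, have wide intervals, and all intervals leave out differences between mice and preparations.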

Other observations

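Other gene lists are read against the 5.94% of all measured genes called higher and the 3.95% called lower. Without cells of other types these shares were 5.49% higher and 4.73% lower. Toll-like and other pattern receptors had 1 of 11 measured members lower and 0 higher, and Fc receptors and integrins 2 of 16 higher and 2 lower. The higher ones were Fcgr3, an activating receptor for antibodies, at 1.88 and the gate gene Itgax, and the lower ones Itgb7 and Selplg. Among chemokines 2 of 10 were higher and 4 lower, and without cells of other types 0 of 7 were higher and 3 lower. Enzymes of tryptophan and vitamin A metabolism had 2 of 6 higher: Aldh1a2, which makes retinoic acid, had 19 UMIs in iAdFASNKO and 5 in control cells, and Il4i1, an amino acid oxidase, 26 in iAdFASNKO and 8 in control cells. Proliferation genes had none of 12 higher or lower in all gated cells and 5 of 12 lower without cells of other types, where their median log2 fold was -0.73. Il1b, the inflammatory cytokine, was higher at 1.72 (1.43 to 2.06) and at 1.66 without other types.

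Markers of B, T, natural killer and mast cells summed to 333, 49.8, 6.23 and 18.7 CPM in iAdFASNKO and to 298, 75.5, 42.8 and 16.3 CPM in control cDC2.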
